A study of Mus musculus with 3 samples.

Results

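Shb, Rap1gap2 and Fancc are 3 protein-coding genes, of 22350 on chromosomes 1 to 19 and X in the GENCODE M1 annotation, each overlapped by one of the widest H3K4me1 enriched regions of cytokine treated mouse islets. They were chosen from the width of that region, so the widths are given as a description. The study compared islets from CD1 mice aged 8 to 12 weeks that were cultured untreated with islets cultured for 4 days with IFNγ at 1.6, IL-1β at 0.25 and TNFα at 0.16 ng/ml, cytokines released by immune cells during islet inflammation. The values below come from the 1 H3K4me1 ChIP-seq library of the treated islets, for which DNA of separate immunoprecipitations was pooled. RNA-seq of untreated and treated islets and H3K4me1 in untreated islets were not analysed here, so no effect of the cytokines on these genes was measured. There was no replicate library, and no test was made. The study's methods name the mice ICR where the labels say CD1, and give a narrower range of ages than the labels.

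H3K4me1, the monomethylation of lysine 4 of histone H3, is found at enhancers and beside promoters that are active or poised. At the start site of an active gene the nucleosomes usually carry the trimethylated form instead, and the monomethylated form flanks it. Most H3K4me1 regions are short, but some genes carry the mark across much of their introns. Islets hold mostly insulin-producing β-cells, together with other endocrine cells, vessels and immune cells, so a region of the list may come from all of the cells or from some of them, which cannot be told apart in a pooled preparation.

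The list held 65709 regions with a median width of 1200 bp, of which 1324 were wider than 10 kb. It gives positions on a 200 bp grid in mm9 and no height, read count or p-value, so the depth of the library and the strength of the mark within a region are unknown. Of all protein-coding genes, 64.5% were overlapped by a region, 66.5% had one within 5 kb of a start site and 39.1% had a start site in one. Of 11 endocrine marker genes, 7 were overlapped by a region, 8 had one within 5 kb of a start site and 1, Ins2, had a start site in one, so the first 2 counts were near the share of all genes. No region overlapped Gcg, Sst or Ppy, the hormone genes of α-, δ- and PP-cells. Of 8 marker genes of acinar, duct, endothelial and immune cells, 6 were overlapped, 6 had a region within 5 kb of a start and 5 had a start in one. The widest region measured 15.2 kb at Krt19 and 4.4 kb at Sox9 (duct), and 11 kb at Pecam1 and 1.6 kb at Kdr (endothelium). It measured 5 kb at Cd68 and 1.8 kb at Ptprc (leukocytes), and no region overlapped the acinar genes Cpa1 and Ptf1a. The part of these other cells in the regions described here was not tested.

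Shb encodes an adaptor protein with an SH2 domain that works downstream of tyrosine kinase receptors, and it has been studied in β-cells. Rap1gap2 encodes a GTPase-activating protein that switches off the small GTPase Rap1, and Fancc a subunit of the Fanconi anaemia core complex, which acts in the repair of DNA crosslinks. All 3 genes lie on the minus strand. The domain at Shb, chr4:45455001-45540400, was the widest of all regions at 85.4 kb, 71.2 times the median width. The domains at Rap1gap2, chr11:74269601-74333600, and at Fancc, chr13:63343401-63407400, were both 64.0 kb wide and shared rank 3. The next narrower region measured 58.4 kb and the one after it 57.8 kb. The domains at Shb and Rap1gap2 lay inside those genes. The domain at Fancc did not span that gene and overlapped only its last exon and 224 bp of the intron before it.

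The sequences before the start sites are shown because the breaks in the mark on the 5′ side of the domains at Shb and Rap1gap2 hold start sites. RefSeq promoters of the 3 genes, given for GRCm38, were found by exact match in mm9, all 6 of 6. Each line gives the 250 bases before a RefSeq start on the minus strand of mm9, 5′ to 3′, with CpG dinucleotides in capitals; the mm9 reference is another mouse strain than the islets.
Shb, start in the break beside the domain, chr4:45543701-45543950: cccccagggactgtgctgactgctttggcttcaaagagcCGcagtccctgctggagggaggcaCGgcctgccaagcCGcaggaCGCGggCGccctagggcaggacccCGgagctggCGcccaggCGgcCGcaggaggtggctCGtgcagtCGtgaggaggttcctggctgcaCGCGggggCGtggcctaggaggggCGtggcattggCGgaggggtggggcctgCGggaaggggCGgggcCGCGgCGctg
Rap1gap2, start in the break beside the domain, chr11:74336304-74336553: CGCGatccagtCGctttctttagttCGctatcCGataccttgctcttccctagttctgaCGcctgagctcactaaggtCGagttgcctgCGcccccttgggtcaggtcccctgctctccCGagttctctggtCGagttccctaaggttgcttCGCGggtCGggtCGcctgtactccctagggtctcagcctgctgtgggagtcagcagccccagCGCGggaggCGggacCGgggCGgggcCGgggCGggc
Rap1gap2, start shared with GENCODE, chr11:74403689-74403938: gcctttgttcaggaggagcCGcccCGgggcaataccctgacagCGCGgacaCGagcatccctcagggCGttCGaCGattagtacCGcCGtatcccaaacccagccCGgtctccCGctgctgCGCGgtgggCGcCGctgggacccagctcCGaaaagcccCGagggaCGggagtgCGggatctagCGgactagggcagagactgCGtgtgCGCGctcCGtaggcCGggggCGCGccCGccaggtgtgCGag
Fancc, chr13:63533054-63533303: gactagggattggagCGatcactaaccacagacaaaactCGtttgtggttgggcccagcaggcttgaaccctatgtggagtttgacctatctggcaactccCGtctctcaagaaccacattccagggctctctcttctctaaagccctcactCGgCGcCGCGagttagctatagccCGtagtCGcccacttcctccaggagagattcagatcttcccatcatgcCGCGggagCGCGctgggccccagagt
The Shb sequence held 22 CpG in 250 bases and the Rap1gap2 sequence beside the domain 21. The sequence before the Rap1gap2 start shared with GENCODE held 30, and that of Fancc 13. The sequences before the other 2 RefSeq starts of Rap1gap2, which are not printed, held 23 at the outermost start and 4 at the start in the break of 34 kb. Over 32851 RefSeq promoters the median was 6, and 14.8% held at least as many as Shb, 16.3% as many as the start beside the Rap1gap2 domain, 5.94% as many as the shared Rap1gap2 start and 31.5% as many as Fancc. For the 2 starts not printed these shares were 13.3% and 62.2%.

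The domain at Fancc covered a cluster of microRNAs, so their mature forms are given too. MicroRNAs are short RNAs that pair with messenger RNAs mainly through their seed, bases 2 to 8, shown in capitals. The hairpins of Mir23b, Mir27b and Mir24-1 matched the plus strand of chromosome 13 at chr13:63401792-63401865, chr13:63402020-63402092 and chr13:63402516-63402583. They lay between 4817 and 5535 bp from the edge of the domain that faces Fancc, and between 3434 and 4152 bp beyond the 3′ end of Fancc.
miR-23b-5p: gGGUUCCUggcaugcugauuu
miR-27b-5p: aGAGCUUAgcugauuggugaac
miR-27b-3p: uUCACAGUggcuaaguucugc
miR-24-1-5p: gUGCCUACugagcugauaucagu
miR-24-3p: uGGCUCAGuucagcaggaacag
All 5 seeds differ from each other. miR-23b-3p belongs to the same cluster.

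Most of Shb lay under H3K4me1, but not the first and last exon of its main transcript, Shb-001. The gene, ENSMUSG00000044813.8, runs over 109.193 kb at chr4:45436150-45545342, and 85.7% of it was covered by 3 regions, which ranked 7 among 4837 protein-coding genes of at least 50 kb. The median of those genes was 5.23%, and 2.87% of them had 50% or more of the gene body covered. Coverage chose the members in part, through the width of the domain, so nothing is read from these ranks. Without the domain 7.46% of the gene would be covered.

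The domain at Shb covered exons 2 to 5 of the transcript with the longest coding sequence, Shb-001, with the introns between them. It also held 95% of intron 1 and 12.4% of intron 5. Exon 1, with 699 coding bases, and exon 6 were not covered by any region. By bases, 87.2% of the introns and 49.3% of the coding sequence of the gene were covered. Of the domain itself, 98.3% was intron and 1.67% exon, against a median of 1.09% exon over the 1323 regions wider than 10 kb on chromosomes 1 to 19 and X.

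On its 5′ side the domain at Shb broke off in intron 1, and a break of 3.6 kb, chr4:45540401-45544000, separated it from a region of 1.8 kb at chr4:45544001-45545800. The break held the start of Shb-001, 2802 bp from the domain, and that of Shb-201, which is also the RefSeq start, 3300 bp from the domain and 301 bp from the region on the other side. It had 61.5% GC and a CpG ratio, observed over expected from the base composition, of 0.718. Of 36 breaks whose regions on both sides lay within 50 kb of the 3 genes or of their domains, this was the highest CpG ratio, and the median was 0.197. All of its 32 bp words occurred once in the genome, so words of that length can be placed there uniquely. On the 3′ side a break of 4.0 kb in intron 5, with a CpG ratio of 0.196, led to a region of 6.8 kb that lay wholly in the gene.

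The other 5 start sites of Shb were covered. Those of Shb-004, Shb-005, Shb-006 and Shb-002 lay inside the domain, and that of Shb-003, the outermost, lay in the region of 1.8 kb. Outside the gene, the mark was one-sided. The 50 kb upstream held no further region and were covered to 0.916%, against a median of 3.6%. The 50 kb downstream held 3 regions of 2.8, 2.8 and 9.0 kb and were covered to 29.2%, against a median of 4.0%. The widest of these lay at Mcart1, which codes for a mitochondrial carrier, and covered all 6 of its start sites. Dcaf10, the next gene on that side, was covered to 2.12%.

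**Figure D1:**
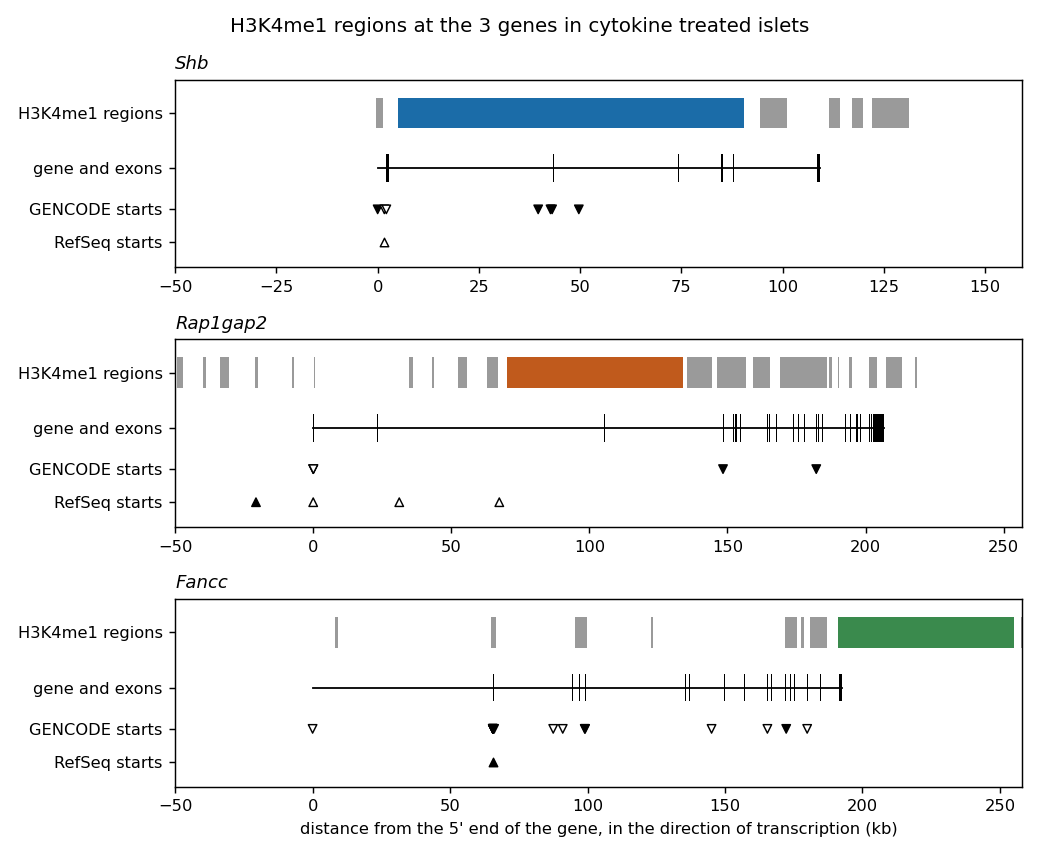
H3K4me1 regions at Shb, Rap1gap2 and Fancc, with distance in kb from the 5′ end of each gene in the direction of transcription on the x axis. The coloured bar is the domain of 85.4, 64.0 and 64.0 kb, grey bars are other regions, black boxes are exons of the main transcript (drawn at least 0.35 kb wide), and triangles are start sites, filled where a region covers them; the domain lies inside Shb and Rap1gap2, whereas at Fancc it overlaps the last 1384 bp of the gene and runs on beyond its 3′ end.

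Rap1gap2 was covered over most of its middle and 3′ part and hardly at all near its annotated 5′ end. The gene, ENSMUSG00000038807.10, runs over 206.831 kb at chr11:74196858-74403688. It was overlapped by 14 regions, 21 with 50 kb on either side, and 59.2% of its bases were covered, rank 78 of 4837. Without the domain the share would be 28.2%. The domain made up 30.9% of the gene and 52.3% of its covered bases.

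The domain at Rap1gap2 lay in introns 2 and 3 of Rap1gap2-001 and covered 42.7% of the first and 66.8% of the second, with exon 3, the only exon in it, between them. Of its bases 63915 were intron and 85 coding. It held no GENCODE start site, and 58.4% of regions wider than 10 kb likewise held none. All 3 domains lay wholly inside 1 protein-coding gene, and 69.8% of regions wider than 10 kb did.

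Beyond the 3′ edge of the domain the mark went on in pieces. A break of 1.4 kb, with a CpG ratio of 0.197, was followed by a region of 9.0 kb, a break of 1.6 kb and a region of 10.6 kb. Further on lay regions of 6.2 and 17.0 kb. Over the whole gene, 17 of the 25 exons of Rap1gap2-001 were covered whole. Exon 25 was covered in part and 7 exons were uncovered. The coding sequence was covered to 71.8%, a higher share than the introns at 59.5%, whereas in Shb the introns had the higher share. Joining regions across breaks of up to 2000 bp, an alternative chosen after the data were seen, gave a domain of 86.6 kb. The domain at Shb stayed at 85.4 kb under this joining, so the order of these 2 domains by width turned.

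The 5′ side of the Rap1gap2 domain ended at a break of 3.2 kb, chr11:74333601-74336800, followed by a region of 3.8 kb. GENCODE M1 has no start there, but a RefSeq start of Rap1gap2 lies in the break, 2703 bp from the domain and 498 bp from the region on the other side. The break had 55.3% GC and a CpG ratio of 0.577, the second highest of the 36. The break on the 5′ side of the Shb domain thus held an annotated GENCODE start and that of the Rap1gap2 domain only a RefSeq start. By GENCODE starts, 1 of the 3 domains had a start in a neighbouring break of at most 5 kb, and 26.5% of all regions wider than 10 kb did.

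The 3 GENCODE starts at the 5′ end of Rap1gap2 were uncovered. They lay 226 to 288 bp from a region of 0.4 kb, chr11:74403001-74403400, in a break of 7.4 kb. A further RefSeq start lay in a break of 34 kb, the widest at this gene, and the outermost RefSeq start, upstream of the GENCODE gene, lay in a region of 1.0 kb. The other 2 GENCODE starts of the gene lay in the regions of 10.6 and 17.0 kb. The flanks held 5 regions upstream and 2 downstream and were covered to 15.6% and 12.0%. Downstream of Rap1gap2 lie the odorant receptor genes Olfr410, Olfr411 and Olfr412, none of which had any covered base, and upstream lies E130309D14Rik, covered to 29.2%.

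Fancc itself was covered far less than Shb and Rap1gap2, though above the median of the long genes. The gene, ENSMUSG00000021461.9, runs over 192.57 kb at chr13:63406017-63598586, and 10.9% of it was covered by 8 regions, which placed it at rank 1499 of the 4837 long genes, or 10.2% without the domain. Its exons were covered to 50%, rank 81, and its coding sequence to 32.4%, rank 268, against medians of 4.56% and 2.36%, and its introns to 9.23%, against 5.13%. Of its 7884 exon bases, 1160 lay in the domain, none of them coding. The exon share and its rank thus come in part from the region that chose the gene. Only 1384 bp of the domain, 2.16% of its width and 0.719% of the gene, overlapped Fancc. That overlap was exon 17 of Fancc-201, a 3′ untranslated exon, and 3.30% of intron 16. The name of a Fancc domain is therefore kept here only as its position.

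The domain at Fancc lay wholly inside 2010111I01Rik, which is called Aopep in RefSeq, encodes an aminopeptidase and runs on the plus strand towards Fancc, with the last 21.4 kb of both genes overlapping. Of the 361.152 kb of 2010111I01Rik, 37.3% was covered by 26 regions, rank 301 of the long genes, and the domain was 17.7% of the gene. It began 277 kb from the start of that gene and covered 95.8% of intron 12 of its main transcript, followed by exons 13, 14 and 15, its last, with the introns between. That transcript ends at chr13:63400964, before the microRNA hairpins, Fancc and the edge of the domain that faces Fancc. The overlap of the genes and the placing of the whole domain in 2010111I01Rik thus hold for the outermost bounds of the gene. Apart from the microRNA genes, the domain held all of Gm16907, a long intergenic noncoding RNA on the minus strand. AC130827.1, annotated as a microRNA on the minus strand, overlapped the hairpin of Mir24-1 on the plus strand. Exons made up 8.60% of the domain, and 6 start sites lay in it, none of them of Fancc.

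The breaks beside the domain at Fancc held no annotated start. On the side of the Fancc gene the break was 4.0 kb wide with a CpG ratio of 0.197, and it was followed by a region of 6.2 kb. On the other side it was 2.4 kb wide with a CpG ratio of 0.431, the third highest of the 36. All 50 kb downstream of Fancc were covered, rank 1 of the 4837 genes, which the domain itself accounts for, and none of the 50 kb upstream was.

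Within Fancc the exons and starts that were covered lay mostly in 3 places. The main start, shared by Fancc-001, Fancc-005 and Fancc-201, was in a region of 1.8 kb, chr13:63531801-63533600, with a CpG ratio of 0.714. Exons 3 and 4 lay in a region of 4.2 kb. At the 3′ end, a region of 4.4 kb covered exons 12 and 13 and one of 6.2 kb exon 16, and the region of 0.8 kb between them lay in an intron. Altogether 7 of 17 exons of Fancc-201 were covered whole and 10 were not covered. Of 17 start sites 11 were covered, 8 of them in the region of 1.8 kb. The outermost, Fancc-017, lay in a break of 62800 bp, 7986 bp from a region of 1.2 kb. Ptch1, the Hedgehog receptor gene upstream of Fancc, was covered to 14.1%.

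The main transcript started in a region at Fancc and in a break of at most 5 kb between 2 regions at Shb, and in neither at Rap1gap2. Of 22342 protein-coding genes, 31.4% had their main transcript start in a region and 13.4% in such a break. By the outermost start of each gene the count changed. That of Shb alone lay in a region, against 31.1% of 22350 genes, and none of the 3 lay in such a break, against 13%. The main transcript was used after the values by outermost start had been seen. All 3 genes had at least 1 start in a region, as did 39.1% of genes. Of the long genes, 11.4% were overlapped by a region wider than 10 kb, which the choice of members fixed.

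**Figure D2:**
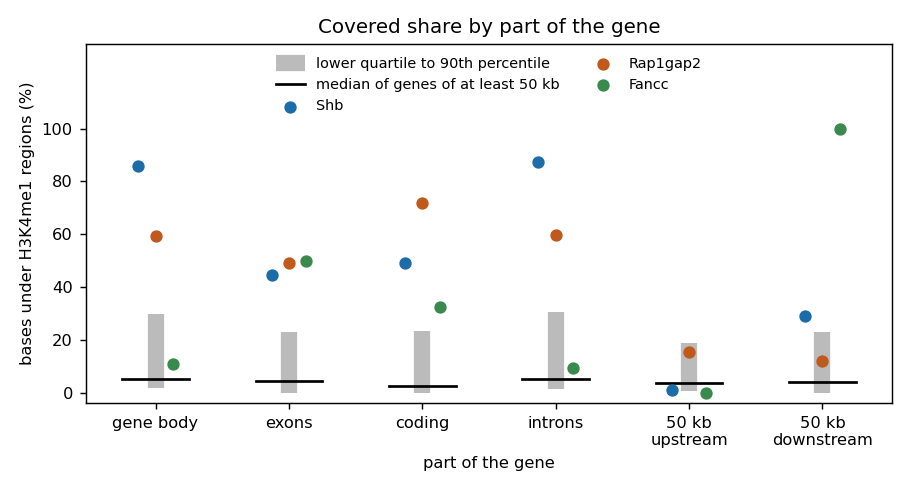
Share of bases under H3K4me1 regions (y axis, %) in parts of the gene and its flanks (x axis) for Shb, Rap1gap2 and Fancc, with the median (line) and the range from the lower quartile to the 90th percentile (grey bar) of 4837 genes of at least 50 kb. Shb and Rap1gap2 lie above the grey bar for gene body and introns, at 85.7% and 59.2% of the gene body, whereas Fancc at 10.9% lies inside it.

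Along the gene body the members differed from each other. When each gene was divided into 20 equal bins from its 5′ end, Shb was fully covered in 15 bins, bins 2 to 16. It was at 34.1% in the first bin and at 0% in the last. Rap1gap2 was at 3.87% in the first bin and at 0% in the next 2, was fully covered from bin 8 to bin 12, and fell to 29.0% in the last. Fancc had no fully covered bin, 12 bins at 0% and its highest share, 58.5%, in the last. The 5′ end of Fancc is here the start of Fancc-017, and the region over its main start lay 65.0 to 66.8 kb downstream of that end. The mean of the long genes fell from 28.0% in the first bin to 4.95% in the last. Shb also ended lower than it began, whereas Rap1gap2 and Fancc ended higher. In 4 equal parts of the gene, Rap1gap2 had 5.03%, 78.4%, 94.2% and 59.1% covered, and Shb 86.8%, 100%, 100% and 55.9%.

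**Figure D3:**
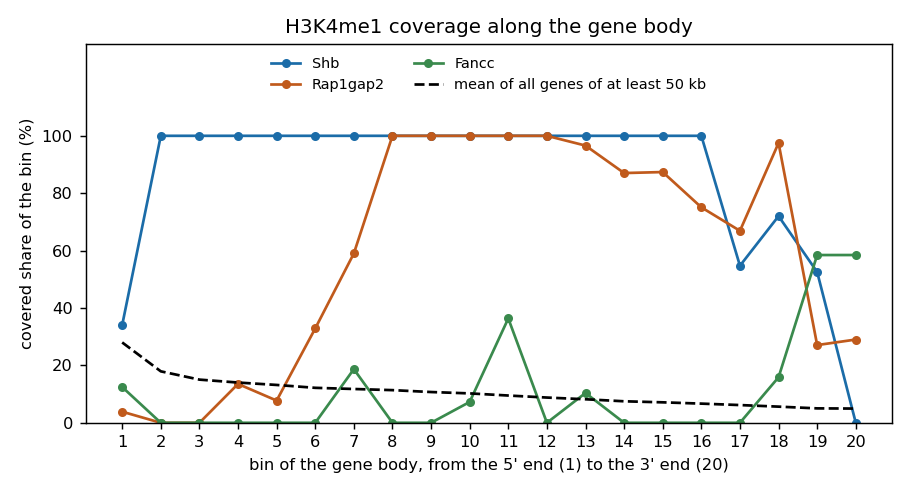
Covered share (y axis, %) of each of 20 equal bins of the gene body from the 5′ end to the 3′ end (x axis) for Shb, Rap1gap2 and Fancc and for the mean of 4837 genes of at least 50 kb (dashed). Shb is at 100% from bin 2 to bin 16, Rap1gap2 from bin 8 to bin 12, and Fancc is highest in its last bin at 58.5%, where the mean is 4.95%.

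The long genes with the profile most like that of Shb, by mean absolute difference over the 20 bins, were Gse1 at 9.01 percentage points, Zfp516 at 9.37 and Bcl2l1, which codes for the survival protein Bcl-xL, at 9.47. Their widest regions measured 46.4, 42.2 and 49.2 kb. Those most like Rap1gap2 were Dusp10, a phosphatase of stress-activated kinases, at 16.8 points, Rtdr1 at 17.2 and Aff1 at 23.4, so no gene was as close to Rap1gap2 as these were to Shb. Fancc was nearest to 4931422A03Rik, E230008N13Rik and Pla2g5, at 5.47, 5.95 and 5.99 points, which were covered to at most 6.54%.

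Shd, She and Shf, the other adaptors of the Shb family, each had a start site in a region, as 39.1% of all genes did. Their widest regions were between 0.6 and 1.8 kb with a median of 1.2 kb, near the median of 1.4 kb over all 22350 genes. Their covered shares were between 1.85% and 12.2%, and the median of all genes was 4.76%.

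Among 14 other genes of the Rap1 pathway, all had a region in the gene, against 64.5% of all protein-coding genes, and 7 had a start in one, against 39.1%. Of the 14, 11 were at least 50 kb long, and 89.6% of all genes of that length had a region in them. The median covered share was 19.4%, against 4.76% of all genes and 5.23% of the long ones. A region wider than 10 kb overlapped 5 of the 14, against 4.82% of all genes and 11.4% of those of at least 50 kb. Of the genes that switch Rap1 off, Sipa1l3 had the widest region at 29.2 kb and was covered to 40.8%, and Rap1gap, the closest relative of Rap1gap2, had one of 11.2 kb and was covered to 30.3%. Sipa1l2 was covered to 2.68%. Rap1b, one of the genes for Rap1 itself, lay to 59.7% under a single region of 18.8 kb, and Rap1a had 39.4% covered with a widest region of 7.2 kb. Of the exchange factors that switch Rap1 on, Rapgef1 was covered to 38.8% and Rapgef4, also called Epac2 and used by cAMP in insulin secretion, to 20.9%, with regions of 16.2 and 15 kb. Rapgef5 and Rapgef6 were covered to 3.66% and 1.47%.

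Among 9 other Fanconi anaemia genes, 5 had a region in the gene, against 64.5% of all genes, and 5 a start in a region, against 39.1%, with a median covered share of 0.549%. Fancf, a gene of 1.691 kb, lay entirely under a region of 10.6 kb. Fance was covered to 17.8%, and Fanca, Fancm and Fanci to between 0.549% and 2.03%. No region overlapped Fancb, Fancg, Fancl or Fancd2.

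In base composition the 3 domains were within the range of other wide regions. GC content was 50.9% at Shb, 48.6% at Rap1gap2 and 46.6% at Fancc, against a median of 46.6% and a 5th to 95th percentile range of 40.1% to 53.7% in regions wider than 10 kb. CpG ratios were 0.206, 0.165 and 0.215, against a median of 0.216. Between 96.4% and 98.3% of 32 bp words in the domains occurred once in the genome. In the 6 breaks beside the domains the share was between 95.7% and 100%, and a break of 8.6 kb elsewhere in Rap1gap2 had 37.9%.

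**Figure D4:**
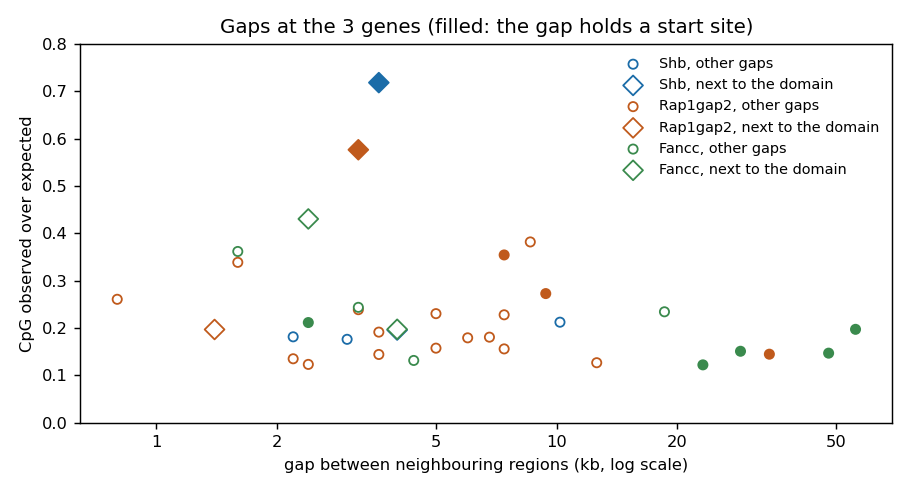
Width of each break between neighbouring regions (x axis, kb, log scale) against its CpG ratio, observed over expected (y axis), for the 36 breaks with both neighbouring regions in the windows of Shb, Rap1gap2 and Fancc. Diamonds lie beside a domain. Filled symbols hold a GENCODE start, or a RefSeq start of Shb, Rap1gap2, Fancc, Aopep or Gm16907, the genes whose RefSeq starts were looked for. The highest ratios, 0.718 and 0.577, belong to the breaks on the 5′ side of the domains at Shb and Rap1gap2.

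Of these 36 breaks, which leave out the one of 62800 bp at the 5′ end of Fancc because its far side lies beyond the 50 kb, 10 held a start and had ratios between 0.122 and 0.718 with a median of 0.205, and the 26 without one had ratios between 0.123 and 0.431 with a median of 0.196. The breaks with a start were wider, with a median of 16.3 kb against 3.8 kb, and the ratio is taken over the whole break. RefSeq starts were looked for only at Shb, Rap1gap2, Fancc, Aopep and Gm16907. A break counted as holding no start can therefore hold a RefSeq start of another gene.

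Short motifs were counted on both strands of the domains, overlapping matches included. The letters were chosen after other results of these data had been seen, and those for NF-κB replaced a looser pattern after its own counts in the domains had been seen. TGANTCA, bound by AP-1, occurred 24 times at Shb, 19 at Rap1gap2 and 23 at Fancc, or 2.81, 2.97 and 3.59 times in 10 kb, against a median of 3.37 in regions wider than 10 kb. CACGTG, an E-box, occurred 15, 8 and 8 times, TGTTTAC, bound by Foxa factors, 10, 6 and 16 times, and GGANTTTCC, part of a site of NF-κB, 2, 3 and 1 times. These motifs were held by 98.9%, 84.8%, 86.7% and 41.6% of the wide regions. At Shb, Rap1gap2 and Fancc, CACGTG occurred 1.76, 1.25 and 1.25 times in 10 kb, against a median of 1.41 in the wide regions. TGTTTAC had 1.17, 0.938 and 2.5, against 1.41, and GGANTTTCC 0.234, 0.469 and 0.156, against 0. All 12 densities lay between the 5th and the 95th percentile of those regions. For the motifs other than TGANTCA the 5th percentile was 0, so no density could fall below it. The wide regions had a median width of 13.3 kb, against 64.0 kb or more for the domains, so nothing is read from this range.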

How the data were processed

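The authors mapped reads to mm9 with bowtie2 (per the labels, Bowtie2 2.2.1), called enriched regions with ChromHMM and deposited positions alone, with no count, score or p-value. Whether the list precedes the study's merging and filtering is not given in the sources used here. The deposited starts were raised by 1, so that positions count from 1. None of those on chromosomes with a reference sequence passed its end. Genes came from GENCODE M1, and base composition, motifs and 32 bp words from the mm9 reference. RefSeq promoter and hairpin sequences were placed by exact match. The main transcript has the longest coding sequence. Repeat shares were not computed, because the reference used does not mark repeats. Named genes were the 3 members, their neighbours within 50 kb, their pathway lists, the 3 genes nearest in profile and markers of islet and other cells. Members, lists, motifs and comparisons were chosen with earlier results of these data known. Coverage and joining were tested on simulated regions. Tables were made with pandas 2.3.3 and numpy 2.4.6 in Python 3.11.15, intervals with scipy 1.17.1, and plots with matplotlib 3.10.9.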

Additional observations from a re-analysis of the deposited data

How the results depend on the processing

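Of 57 values under other settings, over 15 results, 33 were identical to the reported value, many because the setting altered no region at that gene, so they say little about stability. In all, 53 stayed within 1.5 times the count or width, or within the 95% exact binomial interval of the share over 200 bp bins. That interval treats neighbouring bins as independent, which bins of 1 region are not, and it let the covered coding share of Shb pass at 41.7% in its main transcript, against 49.3%. The settings were regions of at least 400 or 1000 bp, joining across breaks of up to 200, 1000 or, added after the data were seen, 2000 bp, flanks of 20 or 100 kb, and other gene models. With flanks of 100 kb, 11 regions were counted at Shb and 16 at Fancc. In the transcript of Fancc with the longest coding sequence alone, 15.1% of the gene body and 13.9% of the introns were covered, since that transcript leaves out the sparsely covered 5′ part of the gene. With 1 library no replicate could be left out, and depth is unknown, so uncovered sequence can lie under the calling threshold. No paired analysis was possible because the result comes from 1 library and no test.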
